A study of Mus musculus with 12 samples.

Results

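The 10 genes described here were chosen by symbol from a table of 20069 mouse genes: the hydroxylases Cyp7a1, Cyp8b1, Cyp27a1 and Cyp7b1, the ring-modifying enzymes Hsd3b7 and Akr1d1, the conjugation enzymes Slc27a5 and Baat, and the regulators Nr0b2 and Nr1h4. The measurements are polyA RNA-Seq of liver from adult male wild-type C57BL/6 mice, 3 to 6 months old, kept under 12 hr light and 12 hr dark. There were 12 samples in 2 independent series, each with 1 sample every 4 hr from ZT2 to ZT22, and ZT is the time in hr since lights on. The time points are the only condition that differs between samples, so each has n = 2. Permutation p-values set the observed order of the values against random orders, and p-values from the software limma rest on the spread between these samples. In bulk liver RNA, fewer cells of a type and less RNA per cell cannot be told apart.

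Bile acids are made from cholesterol in hepatocytes, and their synthesis is one of the main routes by which the body disposes of cholesterol. The classic pathway starts with Cyp7a1, the rate-limiting cholesterol 7-alpha-hydroxylase, while the alternative pathway starts with side-chain oxidation by Cyp27a1 followed by the oxysterol 7-alpha-hydroxylase Cyp7b1. Bile acids that return to the liver activate the receptor FXR, encoded by Nr1h4, which induces the corepressor SHP, encoded by Nr0b2, and SHP lowers transcription of Cyp7a1 and Cyp8b1.

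Levels are given in reads per base pair of exon (rpbp), a coverage per unit of exon length that allows comparison between genes. All 10 genes exceeded the minimum of 8 rpbp in at least 1 sample that 10198 genes passed. Hepatocyte markers were far above those of other cells: the summed hepatocyte markers (Alb, Apoa1, Ttr and Cps1) lay between 78570 and 152619 rpbp, against 233 to 491 rpbp for 4 Kupffer cell markers, 56.1 to 74.0 rpbp for 4 endothelial markers, 185 to 241 rpbp for 4 stellate cell markers and 3.80 to 14.1 rpbp for the 3 cholangiocyte markers in the table. None of these markers was at 0 in all samples. The 2 ZT2 libraries stood apart: Alb was at 50445 and 53126 rpbp in them and at 93174 to 122523 rpbp in the 10 other samples. In the study's sequencing statistics, the 2 ZT2 libraries also had the lowest shares of uniquely mapped reads among the RNA-Seq libraries. The part of this difference in the ZT2 levels was not tested.

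Averaged over the 12 samples, the pathway spanned a wide range of mRNA levels per unit of exon length. Slc27a5, the bile acid CoA ligase that prepares bile acids for conjugation, was the highest at 1121 ± 113 rpbp (SD, n = 12). Hsd3b7 (557 ± 151), Cyp8b1 (528 ± 146), Baat (502 ± 44.3), Cyp7b1 (475 ± 413) and Cyp27a1 (440.0 ± 50.5) followed, and neighbours in this order differed by less than the larger of their SDs. Akr1d1 (292 ± 98.5) and the receptor gene Nr1h4 (126 ± 20.4) came next, each lower than its upper neighbour by more than that SD. The corepressor gene Nr0b2 (89.5 ± 28.9) and Cyp7a1 (71.4 ± 49.3) were the lowest and did not differ beyond their spread. The 12 values of Cyp7a1 ran from 22.1 to 203 rpbp, and its mean was above that of Nr0b2 at ZT10 and ZT14. The order also changed with the hour for Cyp7b1, which in both series was above Slc27a5 at ZT2 and below Nr1h4 at ZT6.

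Whether each gene followed the day was asked with the criteria of the study: F24, the share of the variance over the 12 samples that lies in the 24 hr component, had to exceed 0.45 with a permutation p under 0.05, and the highest sample had to exceed the lowest by more than 1.5-fold. Cyp7a1, Hsd3b7, Akr1d1 and Nr0b2 met all 3 criteria, which is 4 of 10 genes against 19.1% of all expressed genes. With p adjusted over all expressed genes, Cyp7a1, Hsd3b7 and Akr1d1 remained, which is 3 of 10 against 4.81%. The median F24 was 0.50 for the 10 genes and 0.31 for all expressed genes, and the median ratio of highest to lowest sample was 2.45 and 1.64. These 10 genes were chosen for their role in the pathway, with earlier results of these data known, and no test was made of the group as a whole.

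**Figure D1:**
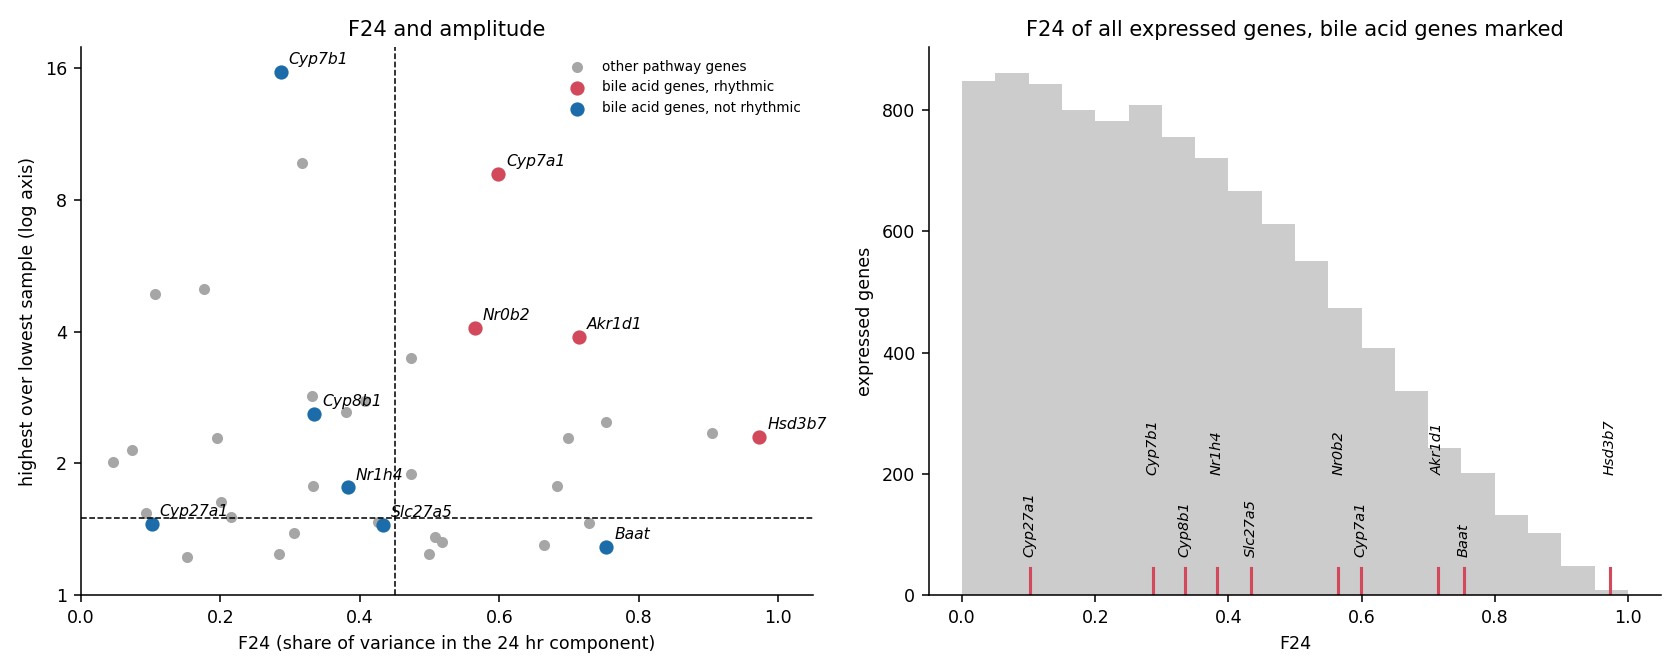
Left, F24 (horizontal) against the ratio of the highest to the lowest of 12 samples (vertical, log axis) for the 10 bile acid genes and for 28 other expressed genes of the pathway (grey); dashed lines mark the minimums of 0.45 and 1.5. Right, the number of expressed genes by F24, with the 10 genes marked. Hsd3b7 lies at the far right at 0.97, Cyp7b1 has the largest ratio, 15.7, at an F24 of 0.29, and Baat passes on F24 but not on amplitude.

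Promoter sequences are shown for the 3 rhythmic genes that have an entry in the RefSeq promoter table (GRCm38.p6) and for Cyp8b1, the 12-alpha-hydroxylase that sets the share of cholic acid, as a gene of the same pathway that did not pass. Each runs 5′ to 3′ on the gene's own strand from 250 bases before to 50 bases after the annotated start. Capitals mark matches to the letters searched on both strands, none of which overlap here: the E-box CACGTG bound by the circadian clock factors, the D-box TTATGTAA or TTACGTAA, the nuclear receptor half-site AGGTCA, the HNF4-type site CAAAGTCCA and the TATA box TATAAA. The windows are chr7:127800359-127800658 (+) for Hsd3b7, chr6:37529923-37530222 (+) for Akr1d1, chr4:133553126-133553425 (+) for Nr0b2 and chr9:121916256-121916555 (-) for Cyp8b1.
Hsd3b7: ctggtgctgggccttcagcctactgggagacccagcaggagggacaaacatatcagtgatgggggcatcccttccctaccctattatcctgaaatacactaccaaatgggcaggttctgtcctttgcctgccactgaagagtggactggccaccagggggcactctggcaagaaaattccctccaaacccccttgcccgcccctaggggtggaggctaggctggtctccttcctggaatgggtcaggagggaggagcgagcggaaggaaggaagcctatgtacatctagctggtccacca
Akr1d1: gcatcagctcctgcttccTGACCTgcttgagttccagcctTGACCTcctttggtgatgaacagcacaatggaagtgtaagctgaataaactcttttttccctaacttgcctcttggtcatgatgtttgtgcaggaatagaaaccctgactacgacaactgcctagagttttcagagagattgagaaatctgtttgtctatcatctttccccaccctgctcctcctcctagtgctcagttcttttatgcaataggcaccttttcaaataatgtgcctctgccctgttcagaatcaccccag
Nr0b2: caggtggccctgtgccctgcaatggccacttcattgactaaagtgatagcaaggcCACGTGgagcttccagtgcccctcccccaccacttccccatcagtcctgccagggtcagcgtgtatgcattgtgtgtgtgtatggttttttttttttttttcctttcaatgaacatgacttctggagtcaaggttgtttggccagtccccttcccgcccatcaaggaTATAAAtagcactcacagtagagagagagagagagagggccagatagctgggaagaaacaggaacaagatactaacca
Cyp8b1: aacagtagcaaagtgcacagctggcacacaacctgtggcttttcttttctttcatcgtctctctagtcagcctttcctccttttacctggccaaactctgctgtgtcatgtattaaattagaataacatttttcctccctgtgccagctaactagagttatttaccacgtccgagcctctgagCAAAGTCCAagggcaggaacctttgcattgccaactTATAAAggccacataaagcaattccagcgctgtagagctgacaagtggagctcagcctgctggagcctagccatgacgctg

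The Nr0b2 window held an E-box with its first base at position -195 from the start and a TATA box at -28. Of all 32851 promoters in the table, 7.15% held this E-box and 13.6% this TATA box. The Akr1d1 window held the half-site AGGTCA on the opposite strand at -232 and again at -210, a match found in 16.3% of promoters. The Cyp8b1 window held CAAAGTCCA at -67, found in 0.475% of promoters, and a TATA box at -31. None of these letters was in the Hsd3b7 window, and the D-box letters, found in 1.06% of promoters, were in none of the 6 windows with an entry. Besides the 4 shown, entries were matched for Cyp27a1 and Nr1h4. Cyp7a1, Cyp7b1, Slc27a5 and Baat had none. These matches describe the sequence in the window and say nothing of binding in these livers.

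Cyp7a1, at chr4:6192759-6202780 on the minus strand (mm9, GENCODE vM1), was lowest at ZT2 or ZT22 and highest around the change from light to dark, at ZT10 in series 1 and at ZT14 in series 2. Cyp7a1 was at 35.0, 62.6, 203, 121, 57.6 and 32.2 rpbp in series 1, in order of time from ZT2 to ZT22, and 22.1, 63.9, 81.4, 84.4, 47.4 and 46.7 rpbp in series 2. The ZT10 and ZT14 samples of both series lay above all other samples, but the size of the peak differed, with series 1 well above series 2 at ZT10. The lowest mean, 28.5 ± 9.14 rpbp at ZT2, and the highest, 142 ± 85.8 rpbp at ZT10 (SD, n = 2 each), differed 4.98-fold. Without the ZT10 sample of series 1, ZT10 was 2.85-fold above ZT2, and the highest mean was that of ZT14, 3.59-fold above ZT2. The 24 hr component had an F24 of 0.60 with its peak at ZT11.4 (permutation p = 0.00060, adjusted p = 0.0250). Each series alone placed the peak close to that hour, at ZT11.2 and ZT11.9. With series 2 alone, however, the exact permutation p was 0.10 (F24 0.84), while series 1 alone gave 0.0167 (F24 0.79), the smallest p that 6 time points allow.

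Hsd3b7, the 3-beta-hydroxysteroid dehydrogenase that acts on 7-alpha-hydroxylated sterols from both pathways, ran nearly opposite to Cyp7a1. Hsd3b7 was at 798, 617, 382, 389.8, 485 and 693 rpbp in series 1, in order of time from ZT2 to ZT22, and 735, 597, 430.4, 348, 535 and 676 rpbp in series 2. The series were close at every time point, with an SD within time points of 5.50% of the mean, and both ZT2 samples were above all others. Its F24 was 0.97 with the peak at ZT1.0, and leaving out any one sample moved the peak only between ZT0.91 and ZT1.12 (permutation p = 0.0001, the smallest that 10000 orders give, adjusted p = 0.0146). The peak of Hsd3b7 fell at ZT1.1 in series 1 and ZT0.90 in series 2. In the GENCODE vM1 models 3523 of the 6154 exonic bases of Hsd3b7 (chr7:134929122-134947316, plus strand) are shared with the neighbouring Setd1a, whose own signal was 11.2 to 16.2 rpbp. The other 9 genes share no annotated exonic base with another gene.

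Akr1d1, the 5-beta-reductase that gives bile acids their bent ring system, was lowest at ZT2. Akr1d1 was at 111, 318, 378, 376, 362 and 307 rpbp in series 1, in order of time from ZT2 to ZT22, and 97.6, 293, 380.0, 356, 299 and 229 rpbp in series 2. The 2 ZT2 samples did not overlap with the other 10, which lay between 229 and 380.0 rpbp. The means ranged 3.63-fold, from 104 ± 9.50 at ZT2 to 379 ± 1.36 at ZT10 (SD, n = 2). Its F24 was 0.71 with the peak at ZT13.1 (permutation p = 0.00080, adjusted p = 0.0280). Without the ZT2 libraries its F24 was 0.72 (permutation p = 0.0120), and series 2 alone gave 0.83 with an exact permutation p of 0.05, which is not under the threshold. A limma cosine fit also ended the call for Akr1d1 (adjusted p = 0.0509) and that for Nr0b2 (adjusted p = 0.114). Akr1d1 lies at chr6:37480173-37518815 on the plus strand (mm9).

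**Figure D2:**
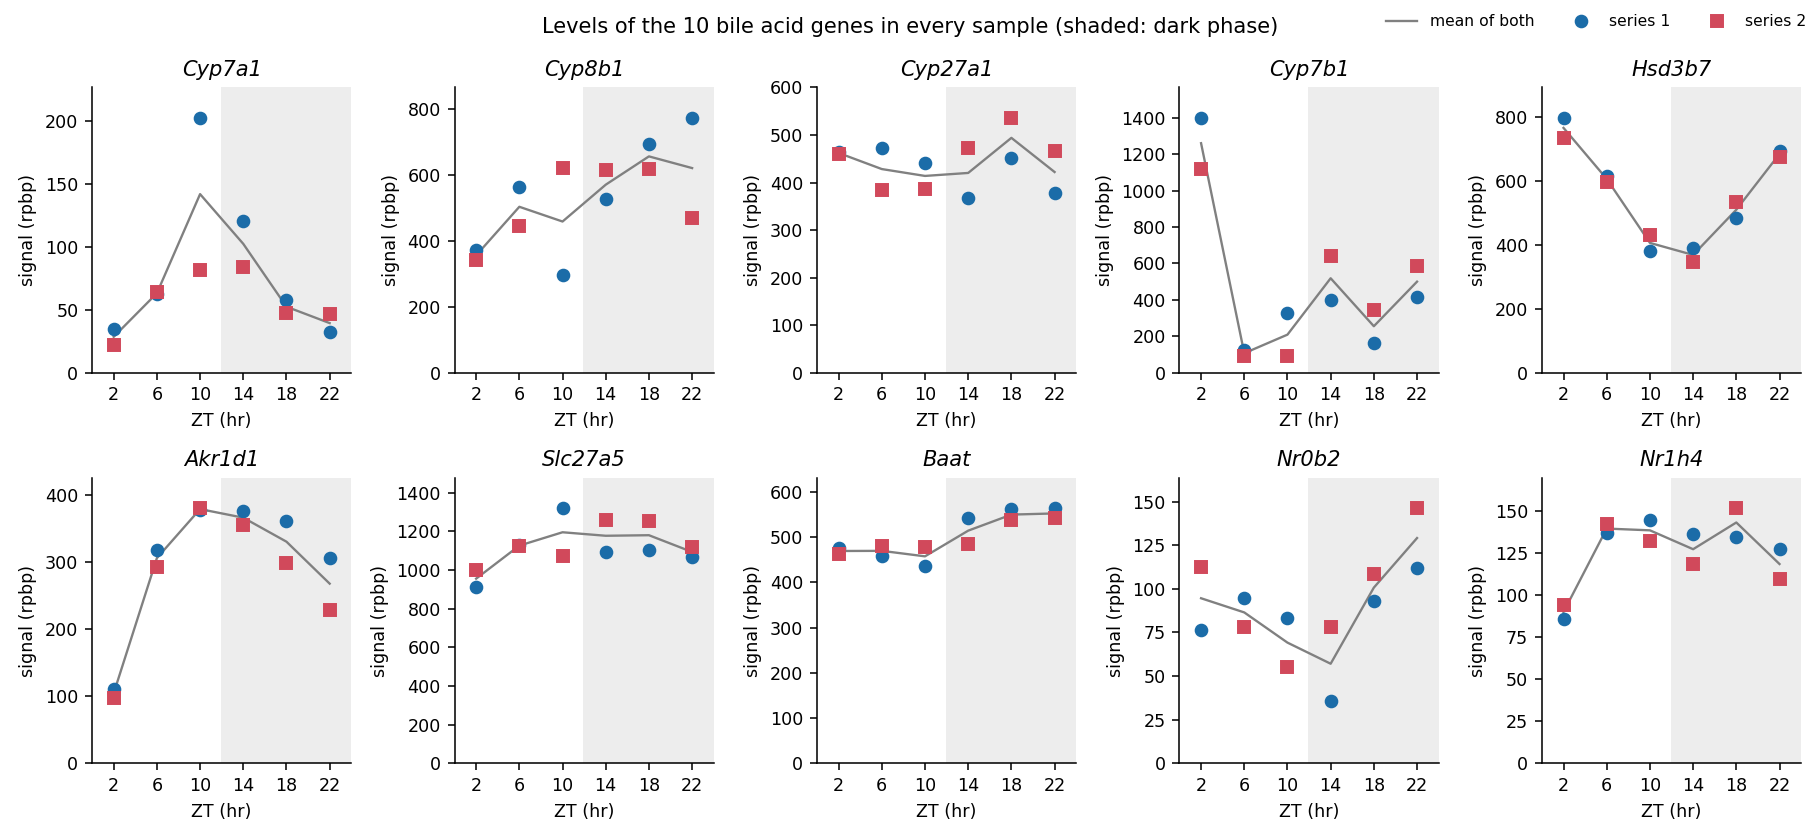
Signal in rpbp (vertical, from 0) against ZT in hr (horizontal) for the 10 genes, with series 1 as circles, series 2 as squares, their mean as a line and the dark phase shaded. Cyp7a1 is highest at ZT10 and ZT14, Hsd3b7 is lowest there, and Cyp7b1 and Akr1d1 change most between ZT2 and ZT6.

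Cyp7b1 (chr3:17971950-18143338, minus strand, mm9) had the widest range of the 10 genes but did not pass as rhythmic. Cyp7b1 was at 1400.0, 124, 329, 399, 165 and 414 rpbp in series 1, in order of time from ZT2 to ZT22, and 1122, 89.6, 89.2, 639, 345 and 587 rpbp in series 2. Both ZT2 samples were above all others, and the level 4 hr later was the lowest or close to it in each series. The mean fell from 1261 ± 197 rpbp at ZT2 to 107 ± 24.6 rpbp at ZT6 (SD, n = 2), an 11.8-fold difference. The 24 hr component held an F24 of 0.29 (permutation p = 0.228, adjusted p = 0.416), and the 12 hr component held 0.58 of the variance. Besides the high ZT2 samples, a smaller rise at ZT14 was followed by a dip at ZT18. A test that does not assume a cosine did call Cyp7b1, as described next.

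Differences between the 6 time points of any shape were tested with limma's moderated F-test on log2(rpbp + 1), adjusted over all expressed genes. Akr1d1 (adjusted p = 0.00150), Hsd3b7 (adjusted p = 0.00244), Cyp7b1 (adjusted p = 0.0223), Nr1h4 (adjusted p = 0.0302) and Cyp7a1 (adjusted p = 0.0318) differed between time points, which is 5 of 10 genes against 17.6% of all expressed genes. The other 5 did not pass, with adjusted p from 0.162 for Baat to 0.699 for Cyp27a1. Leaving out single libraries changed this count. Without any one of the ZT2 or ZT6 samples, 2 genes passed, Akr1d1 and Hsd3b7. Without the ZT18 sample of series 2, 3 genes passed. With no expression minimum, where more genes are tested, only Akr1d1 and Hsd3b7 passed. Cyp7a1 still passed when a ZT10 sample of either series or the ZT22 sample of series 2 was left out, and did not pass without any one of the others (adjusted p from 0.00964 to 0.118 over all alternatives). With both ZT2 libraries left out, which was chosen after their levels were seen, Hsd3b7 alone passed.

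The ZT2 samples were examined further because several genes were at an extreme there, a pattern chosen after the values were seen. Both ZT2 samples were below the other 10 for Akr1d1, Slc27a5 and Nr1h4, 3 of 10 genes against 9.58% of all expressed genes. Both were above the other 10 for Cyp7b1 and Hsd3b7, 2 of 10 against 10.4%. The mean at ZT2 was 0.32 of the mean of the other samples for Akr1d1, 0.67 for Nr1h4, 0.83 for Slc27a5, 1.49 for Hsd3b7 and 3.96 for Cyp7b1. For the genes whose ZT2 samples overlapped with the others it was 0.36 for Cyp7a1, 0.63 for Cyp8b1, 0.92 for Baat, 1.06 for Cyp27a1 and 1.07 for Nr0b2. Of the 4 hepatocyte markers, Alb (0.48 of the other samples) and Ttr (0.72) were below all others at ZT2, Apoa1 (1.47) was above all others and Cps1 (0.76) overlapped. Their sum was 78570 and 81452 rpbp at ZT2 and 119643 to 152619 rpbp at the other time points. Of the 4 Kupffer cell markers, Clec4f, Cd5l and Csf1r were above all others at ZT2 and Emr1 overlapped, and their sum was 491 and 489.7 rpbp at ZT2 against 233 to 401 rpbp. Of the 4 endothelial markers Lyve1 (1.42) was above all others at ZT2 and Stab2 (0.91) below, of the 4 stellate cell markers Reln (0.72) was below, and the 3 cholangiocyte markers overlapped. Over the whole day the summed hepatocyte markers had an F24 of 0.56 with the peak at ZT14.0. The F24 was 0.49 for the Kupffer cell sum (peak at ZT2.5) and 0.78 for the cholangiocyte sum (peak at ZT21.3). It was 0.07 for the endothelial and 0.22 for the stellate cell markers. Alb made up most of the hepatocyte sum. Sox9 (1.52 to 11.3 rpbp) had the widest range of the 3 cholangiocyte markers and was the only 1 that passed the expression minimum. Krt19 and Krt7 had their highest means at ZT14 and ZT18. These sums thus describe mainly Alb and Sox9 rather than their cell types. The part of these marker levels in the ZT2 values or the rhythms of the bile acid genes was not tested. After scaling by median-of-ratios size factors the same number of genes, 4, passed as rhythmic and 5 differed between time points. These factors lay between 0.975 and 1.04, so the scaling changed the signal little and does not address the marker levels at ZT2.

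**Figure D3:**
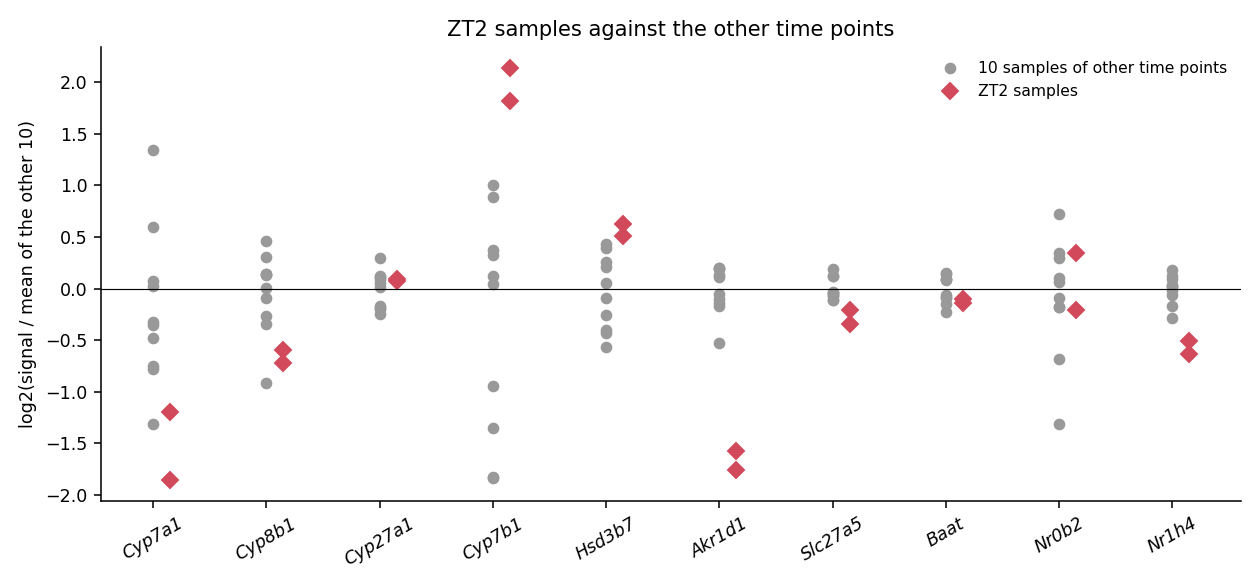
For each of the 10 genes, log2 of the signal over the mean of the 10 samples of other time points (vertical): grey circles are those 10 samples and red diamonds the 2 ZT2 samples. The diamonds lie clear of the circles for Cyp7b1 and Hsd3b7 above and for Akr1d1, Slc27a5 and Nr1h4 below.

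Cyp8b1 (chr9:121823474-121825423, minus strand, mm9, 1 exon) was low at ZT2 and higher at ZT18 in both series, but the series differed at ZT10 and ZT22. Cyp8b1 was at 372, 563, 298, 527, 694 and 773 rpbp in series 1, in order of time from ZT2 to ZT22, and 340.4, 444, 619, 614, 619 and 468 rpbp in series 2. The lowest and the highest of the 12 samples were both in series 1, at ZT10 and ZT22, whereas series 2 lay above the mean of the 12 samples at ZT10 and below it at ZT22. The F24 was 0.33 (permutation p = 0.159, adjusted p = 0.343). The peak of the fitted component lay at ZT20.1 in series 1 and ZT14.2 in series 2. Cyp27a1 (chr1:74760148-74784464, plus strand, mm9), the mitochondrial sterol 27-hydroxylase, kept between 368 and 536 rpbp, with an F24 of 0.10 (permutation p = 0.614).

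The course of the other hydroxylases relative to Cyp7a1 was tested as the difference in log2(rpbp + 1), over 3 pairs. Cyp8b1 exceeded Cyp7a1 in every sample, by 1.47-fold and 7.61-fold at ZT10 in series 1 and series 2 and by 24.0-fold and 10.03-fold at ZT22. The F24 of the Cyp8b1 to Cyp7a1 ratio was 0.59 (permutation p = 0.00283, adjusted over 3 pairs p = 0.00424), with its peak at ZT22.5. The ratio of Cyp27a1 to Cyp7a1 went from 2.18-fold and 4.75-fold at ZT10 to 13.3-fold and 20.8-fold at ZT2, and had an F24 of 0.76 (permutation p = 0.00103, adjusted p = 0.00309). The ratio of Cyp7b1 to Cyp7a1, the 7-alpha-hydroxylases of the alternative and the classic pathway, was the widest. On the log2 scale it was 5.28 and 5.60 at ZT2 and 0.70 and 0.13 at ZT10. Its F24 was 0.58 (permutation p = 0.0241, adjusted p = 0.0241), and the call was lost without the ZT10 sample of series 1 (permutation p = 0.0511) or of series 2 (permutation p = 0.0627). All 3 ratios share Cyp7a1 as the denominator, so they are not independent of one another or of its own rhythm. In series 2 alone none of the 3 passed (exact permutation p = 0.183 to 0.30), and in series 1 alone only Cyp8b1 to Cyp7a1 did (exact permutation p = 0.0333), with 0.25 for the ratio of Cyp7b1 and 0.05 for that of Cyp27a1.

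**Figure D4:**
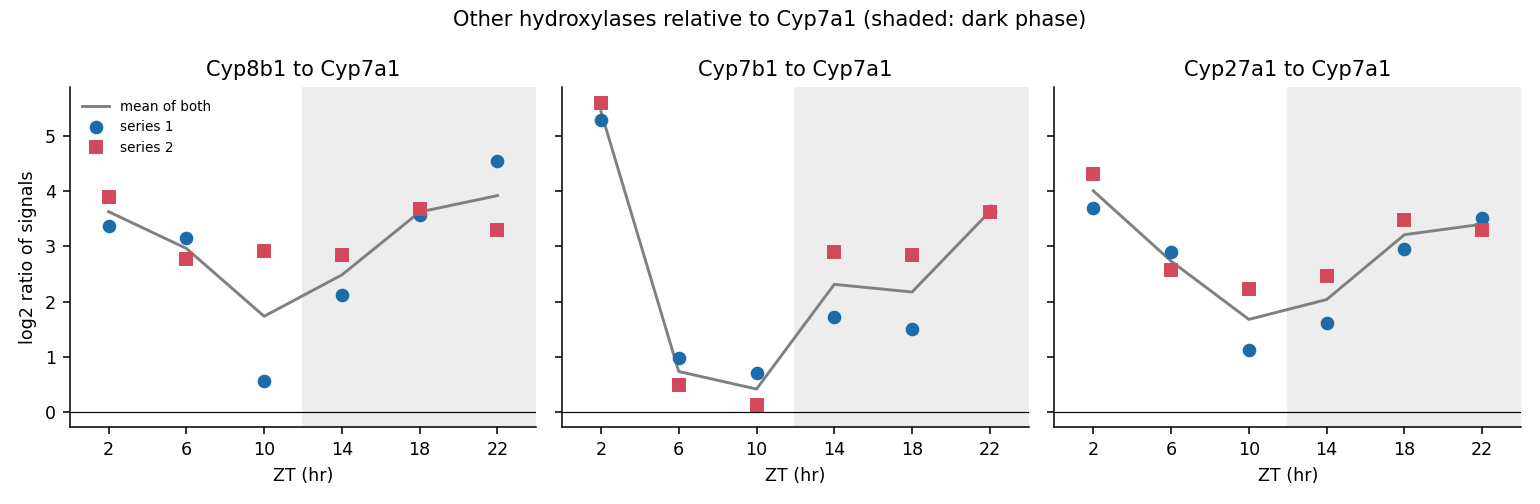
Log2 of the ratio of Cyp8b1, Cyp7b1 and Cyp27a1 to Cyp7a1 (vertical) against ZT in hr (horizontal), with series 1 as circles, series 2 as squares, their mean as a line and the dark phase shaded. In all 3 panels the lowest mean is at ZT10, and Cyp7b1 has the highest ratio at ZT2.

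The conjugation enzymes varied over a narrow range. Slc27a5 (chr7:13573695-13583541, minus strand, mm9) lay between 911 and 1318 rpbp, a ratio of 1.45, with an F24 of 0.43 (permutation p = 0.083, adjusted p = 0.244). Baat (chr4:49502294-49519429, minus strand, mm9), which joins the activated bile acid to taurine or glycine, had a regular course of small size. Its means were between 458 ± 30.5 rpbp at ZT10 and 553 ± 15.6 rpbp at ZT22 (SD, n = 2). Its F24 of 0.75 (permutation p = 0.0060, adjusted p = 0.0695) was above the minimum, with the peak at ZT19.0 and ZT19.3 in the separate series. Its ratio of highest to lowest sample, 1.29, was under 1.5, so it was not called.

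Among the regulators, Nr0b2 (chr4:133109291-133112451, plus strand, mm9, 2 exons) was highest late in the dark phase. Nr0b2 was at 76.6, 95.0, 83.0, 35.8, 92.8 and 112 rpbp in series 1, in order of time from ZT2 to ZT22, and 113, 78.0, 55.3, 78.4, 109 and 146 rpbp in series 2. The ZT22 sample was the highest of each series, but the lowest was ZT14 in series 1 and ZT10 in series 2. The means ranged 2.26-fold between ZT14 and ZT22. This fold was 3.61 without the ZT14 sample of series 2 and 1.65 without that of series 1, where the lowest mean moved to ZT10 and the range was 1.87-fold. The F24 was 0.56 with the peak at ZT22.9 (permutation p = 0.0183, adjusted p = 0.114). The rhythm was weak in series 1 (F24 0.37, exact permutation p = 0.517) and clear in series 2 (F24 0.97, exact permutation p = 0.0333). The call for Nr0b2 was also lost without the series 2 sample of ZT10 or of ZT22, where p reached 0.0722 in the permutation test.

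Nr1h4 (chr10:88916979-88996330, minus strand, mm9) was at 85.9 and 94.0 rpbp at ZT2 and at 109 to 151 rpbp in the other samples. It was not called rhythmic (F24 0.38, permutation p = 0.119), and its course had 0.48 of its variance in the 12 hr component. Without the ZT14 sample of series 2 it met the criteria (F24 0.55, permutation p = 0.0428).

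The corepressor gene was compared with its known targets, and the receptor gene with the corepressor gene, over the 12 samples, as 3 relations. Nr0b2 and Cyp7a1 gave a negative relation, with Pearson r = -0.57 (permutation p = 0.0546, adjusted p = 0.164) and Spearman rho = -0.65 (permutation p = 0.0254, adjusted p = 0.0763). The sign held within each series (r = -0.47, exact permutation p = 0.367, and r = -0.68, exact permutation p = 0.122), but neither adjusted value passed. Leaving out the 2 samples with Nr0b2 farthest from its median gave r = -0.52 (permutation p = 0.126). No relation was detected between Nr0b2 and Cyp8b1 (r = -0.02, permutation p = 0.943, rho = 0.04, permutation p = 0.904), and the series differed in sign (r = 0.23 and -0.46). Nr1h4 and Nr0b2 gave r = -0.21 (permutation p = 0.502) and rho = -0.15 (permutation p = 0.65). Samples of one time point share the hour, so these relations are between courses over the day.

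**Figure D5:**
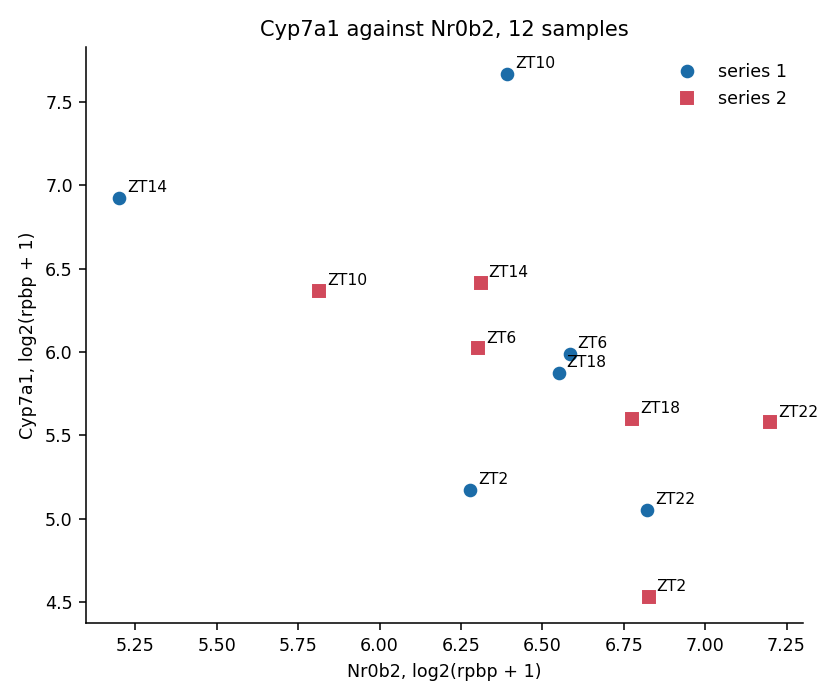
Cyp7a1 (vertical) against Nr0b2 (horizontal), both as log2(rpbp + 1), in the 12 samples, labelled by time point, with series 1 as circles and series 2 as squares. ZT10 and ZT14 samples lie at the top and ZT2 and ZT22 samples at the bottom, and Pearson r is -0.57.

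The other genes of the pathway were listed by role, 33 in all, of which 31 were in the table and 28 were expressed. As rhythmic, 1 of 12 synthesis genes, 2 of 11 regulators and 1 of 5 transporters passed, together 4 of 28 against 19.1% of all expressed genes. Abcb11, the bile salt export pump, had an F24 of 0.91 with the peak at ZT0.66 (permutation p = 0.0001, adjusted p = 0.0146). Fgfr4, the hepatic receptor for the gut hormone that represses Cyp7a1, had an F24 of 0.75 with the peak at ZT21.5 (permutation p = 0.0001, adjusted p = 0.0146). Nr1i2, the xenobiotic receptor PXR, peaked at ZT13.1 (F24 0.70, permutation p = 0.0050, adjusted p = 0.0636) and Akr1c14 at ZT9.0 (F24 0.68, permutation p = 0.0088, adjusted p = 0.0812). By limma's F-test, 8 of the 28 differed between time points, 3 synthesis genes, 3 regulators and 2 transporters, against 17.6% of all expressed genes.

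The genes whose courses were most like those of Cyp7a1, Cyp8b1 and Nr0b2 over the 12 samples were taken by Pearson r of log2(rpbp + 1) among all expressed genes. For Cyp7a1 they were Efhd2 (r = 0.96), D4Wsu53e (0.93), Fah (0.93), an enzyme of tyrosine breakdown, Ptch1 (0.92), the Hedgehog receptor, and Stard5 (0.92), a sterol-binding protein. Of the other 9 genes of the set, Akr1d1 was the most like Cyp7a1 (r = 0.73) and Hsd3b7 the least (r = -0.85). For Cyp8b1 they were Btg1 (0.86), Larp2 (0.84), AK087905 (0.83), Pddc1 (0.83) and Pmvk (0.82), a kinase of cholesterol synthesis. Baat (0.69) was the nearest of the set to Cyp8b1. For Nr0b2 they were 2310047M10Rik (0.89), masp3 (0.89), Aars2 (0.87), Ankrd27 (0.85) and Utx (0.83). These values describe likeness in 12 samples that share 6 hours of the day.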

How the data were processed

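Liver polyA RNA was sequenced from 12 samples (libraries from 4 µg of total RNA, without strand marking). The deposited signal is coverage made by the authors: uniquely mapped reads (TopHat, after CASAVA 1.8, mm9) over the exons of all isoforms, divided by exon length and scaled to a fixed number of uniquely mapped reads. Here it was multiplied by 4, the scale of the study's minimum of 8 rpbp. The signal holds no counts, so no counting interval is given and depth per sample is unknown from it. Columns headed for ZT20 were taken as ZT22, as in the labels. The file also holds an F24 score, phase and p-value per gene from the authors, which were not used.

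F24 and its permutation p (10000 orders, 100000 for ratios and correlations) were computed with Python 3.11.15 and numpy 2.4.6, and time points compared with limma 3.58.1 (R 4.3.3) with Benjamini-Hochberg adjustment over 10198 genes. A fold change from log2(rpbp + 1) understates low genes. Promoter windows (250 bases before to 50 after the start) came from RefSeq. The code was tested on simulated data. The genes named are the 10 members, other pathway genes called rhythmic, the 5 genes most like Cyp7a1, Cyp8b1 and Nr0b2, markers, and Setd1a, added for its shared exons. The members and lists were chosen with earlier results of these data known. No source used here says that each sample is 1 animal.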

Additional observations from a re-analysis of the deposited data

How the results depend on the processing

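Of the 10 genes, 4 passed as rhythmic with no expression minimum, a minimum of 16 rpbp, size factors, F24 on log2(rpbp + 1) or log2(rpbp + 0.1), amplitude from time-point means, and without the ZT2 libraries, and 3 with adjusted p. A limma cosine fit (adjusted p) called 2, Cyp7a1 and Hsd3b7, and leaving out samples gave 2 to 5. Hsd3b7 was called under all of these. The other pathway genes gave 4, but 2 with adjusted p and 1 to 6 with samples left out. Time-point differences were found for 5 genes, for 2 with no expression minimum, where more genes are tested, for 1 without the ZT2 libraries, and for 2 to 5 with single samples left out. The ranges of F24 with samples left out were 0.51 to 0.83 for the Cyp8b1 to Cyp7a1 ratio, 0.52 to 0.70 for Cyp7b1 to Cyp7a1 and 0.71 to 0.93 for Cyp27a1 to Cyp7a1. The r of Nr0b2 and Cyp7a1 lay between -0.68 and -0.47 in single series, that of Nr0b2 and Cyp8b1 between -0.46 and 0.23, and that of Nr1h4 and Nr0b2 between -0.42 and -0.03. The cause of these changes was not tested.

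Samples of the 2 series share only a number: over 15 pairs of time points the deviations correlated with r from -0.15 to 0.21 (median -0.03), and 2 were over 0.1. With the replicate block, 4 genes and 4 other pathway genes passed as rhythmic and 4 genes differed between time points, Nr1h4 being lost. The block gave F24 of 0.61, 0.59 and 0.81 for the Cyp8b1, Cyp7b1 and Cyp27a1 ratios and r of -0.55, -0.02 and -0.20 for the 3 relations. The 2 samples at each time point limit the precision.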
